A study of Mus musculus with 20 samples.

Results

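The ETS family genes described here are *Erg*, *Fli1*, *Ets1*, *Ets2*, *Elf1*, *Etv6*, *Etv5*, *Elk3*, *Spi1* and *Spib*. They were found by matching these mouse symbols to the Entrez gene identifiers of the deposited RNA-seq table, which gave all 10 members among 25869 genes. ETS proteins are transcription factors that share one DNA-binding domain and bind sites with a GGAA core. Some are activators and others, such as ETV6, are repressors, and many work with partner factors of the RUNX, GATA, IRF or AP-1 families. In blood, ERG and FLI1 are known for stem cells and progenitors, PU.1 (the product of *Spi1*) and SPIB for myeloid and B cells, and ETS1 for lymphocytes.

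The study built mice with a CRISPR activation cassette, dCas9a-SAM, under the CAG promoter at the *Rosa26* locus, and asked whether it could switch on an endogenous gene such as *Bcl-2*. Of 20 libraries, 10 were MEFs, fibroblasts grown from mouse embryos. They were 2 WT libraries, 2 with dCas9a-SAM (KI/+) and no sgRNA, 2 with dCas9a-SAM (KI/+) and the non-targeting sgNT, and 4 with dCas9a-SAM (KI/+) and sg*Bcl-2*. Another 6 libraries were lymphoma cell lines that all carry Eµ-*Myc* (*Myc* driven in B cells by the immunoglobulin heavy chain enhancer), dCas9a-SAM (KI/+) and sg*Bcl-2*. These lines came from irradiated C57BL/6-Ly5.1 recipients of transduced fetal liver cells. The library names 14_179_IgMp, 15_180_IgMp, 16_202_IgMp and 17_213_IgMp were labelled IgM-positive and 18_214_IgMn and 19_216_IgMn IgM-negative, and these lines are called L14 to L19 here after the first number of the name. A further 2 libraries were primary tumours of the same genotype, labelled IgM-positive, which can hold cells of the host. Their titles and descriptions give opposite mouse numbers, and they are therefore named by library number, as tumour libraries 20 and 21. The last 2 libraries were preB-ALL, a leukaemia of B cell precursors with BCR-ABL1 (p190T/+) and without Eµ-*Myc*, dCas9a-SAM or an sgRNA in their labels. The library names P190CreERLSLErg (preB-ALL 1) and P190RagCreErg (preB-ALL 2) contain *Erg*, and the labels do not describe that allele. An mRNA of an added *Erg* allele and that of the endogenous gene cannot be told apart in a value per gene.

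The depth was 12474885 to 26678417 reads on genes per library, lowest in the preB-ALL pair. The values are CPM, reads of a gene per 1000000 reads on genes. IL7 was in the medium of preB-ALL alone, a different kit was used for its RNA, and its labels carry the identifier of a separate sequencing run, so tumour type and batch cannot be told apart. The summed level of 7 B cell markers was 1071 to 1935 CPM in the lines, 5187 and 5524 CPM in the tumours, 3671 and 6768 CPM in preB-ALL and 11.4 to 24.7 CPM in MEFs. Of the 7, 5 were called lower in the lines than in preB-ALL, as were 22.5% of all 13961 genes tested (limma). The summed level of 8 T cell markers was 0.0431 to 23.0 CPM in the lines and 41.3 and 190 CPM in preB-ALL, nearly all of it *Cd2* (39.5 and 188 CPM), with *Cd8a* and *Cd8b1* at 0 there. Both T cell markers tested (*Cd2*, *Cd5*) and 4 of 5 myeloid markers tested were called lower in the lines, where 22.5% of all genes were. The myeloid list summed to 2.27 to 13.2 CPM in the lines and 11.3 and 24.4 CPM in preB-ALL. The summed level of 12 fibroblast markers was 3200 to 17001 CPM in MEFs, 3.67 to 83.4 CPM in the lines, 24.7 and 219 CPM in the tumours, and 2792 and 1323 CPM in preB-ALL 1 and 2. Of 10 fibroblast markers tested, 8 were called lower in the lines than in preB-ALL, where 22.5% of all genes were (limma). WT MEF 2 stood apart, with 223 CPM of 8 macrophage and other myeloid markers against 8.60 to 14.2 CPM in the other MEFs and the lowest fibroblast sum. The labels do not say that libraries of a group came from separate cultures or animals for every group, and p-values measure only the spread between these libraries.

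*Erg* lies at chr16:95359169-95586600 and *Ets2* 116 kb from it at chr16:95702407-95721049 (GRCm38.p6). *Fli1* at chr9:32422204-32543432 and *Ets1* at chr9:32636241-32757820 are likewise neighbours, 93 kb apart. The other members are *Elf1* (chr14:79481174-79582491), *Etv6* (chr6:134035700-134270158), *Etv5* (chr16:22381313-22439570), *Elk3* (chr10:93247415-93311159), *Spi1* (chr2:91082374-91115759) and *Spib* (chr7:44525995-44532087). RefSeq promoter sequences were given for 7 of the 10 members, in 11 windows. The 250 bases before the start are printed for *Erg*, whose level varied most over the 6 lymphoma lines and which has 3 annotated starts, and for *Ets2*, *Etv5* and *Spib*, which differed between the tumour types or from MEFs. All are written 5′ to 3′ on the strand of the gene, and capitals mark the ETS core GGAA and its reverse complement TTCC. The *Erg* windows are chr16:95459349-95459598, chr16:95530366-95530615 and chr16:95586594-95586843 on the minus strand. The *Ets2* window is chr16:95702157-95702406 on the plus strand, and the *Etv5* window chr16:22438369-22438618 and the *Spib* window chr7:44532072-44532321 are on the minus strand.
Erg start 1: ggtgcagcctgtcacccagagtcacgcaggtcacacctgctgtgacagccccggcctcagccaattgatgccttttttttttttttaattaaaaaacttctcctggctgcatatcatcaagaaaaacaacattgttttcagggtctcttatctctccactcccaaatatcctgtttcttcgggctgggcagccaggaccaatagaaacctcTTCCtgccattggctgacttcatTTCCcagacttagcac
Erg start 2: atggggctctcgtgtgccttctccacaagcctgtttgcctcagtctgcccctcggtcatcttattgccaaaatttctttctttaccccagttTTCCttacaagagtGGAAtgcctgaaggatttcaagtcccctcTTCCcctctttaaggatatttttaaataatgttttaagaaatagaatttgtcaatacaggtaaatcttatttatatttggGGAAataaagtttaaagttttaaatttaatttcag
Erg start 3: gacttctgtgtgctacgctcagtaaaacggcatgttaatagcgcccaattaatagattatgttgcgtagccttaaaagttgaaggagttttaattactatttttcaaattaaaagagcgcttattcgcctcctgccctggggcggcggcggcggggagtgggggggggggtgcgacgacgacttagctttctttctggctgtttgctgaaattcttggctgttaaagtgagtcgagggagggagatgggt
Ets2 start 1: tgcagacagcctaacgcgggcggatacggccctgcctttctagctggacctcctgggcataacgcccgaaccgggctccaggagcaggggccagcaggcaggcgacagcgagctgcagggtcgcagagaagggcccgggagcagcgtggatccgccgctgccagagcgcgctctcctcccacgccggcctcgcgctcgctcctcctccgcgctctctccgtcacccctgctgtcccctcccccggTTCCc
Etv5 start 1: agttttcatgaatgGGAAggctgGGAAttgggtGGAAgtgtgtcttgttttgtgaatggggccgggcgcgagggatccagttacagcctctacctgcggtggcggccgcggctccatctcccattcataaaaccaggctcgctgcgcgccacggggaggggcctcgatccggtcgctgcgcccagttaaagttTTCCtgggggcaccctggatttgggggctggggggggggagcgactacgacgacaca
Spib start 1: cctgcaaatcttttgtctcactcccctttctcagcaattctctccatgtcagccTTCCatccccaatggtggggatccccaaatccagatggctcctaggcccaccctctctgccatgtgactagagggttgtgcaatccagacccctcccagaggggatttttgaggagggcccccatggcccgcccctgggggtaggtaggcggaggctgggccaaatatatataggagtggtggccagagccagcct

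The ETS core, counted on both strands, occurred 2, 4 and 0 times in the windows of *Erg* starts 1, 2 and 3, 1 time each in those of *Ets2* and *Spib*, 4 times in that of *Etv5* start 1 and 0 times in that of *Etv5* start 2, which is not printed. Over 32851 RefSeq windows of the same length, the median was 3 cores and 93.4% held at least 1. The longer letters CGGAAG and GAGGAA, which contain that core, were in none of the 11 member windows and in 13.6% and 23.3% of all windows. TGTGGT, the letters of a RUNX site, were in none of the 11 member windows and in 14% of all. GATAA was in the window of *Erg* start 1 alone among the 11, and in 22.6% of all windows. TGANTCA, the AP-1 letters, was in 1 of the 11 member windows, that of *Elf1* start 2, and in 6.75% of all windows. The *Spib* window holds 2 CpG sites and the *Ets2* window 25. The 3 *Erg* windows hold 3, 2 and 14 CpG sites. These matches describe letters and no binding was measured.

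Across the members, those of the B lineage (*Spi1*, *Spib*) and *Fli1* were found in all lymphoid libraries and at 0 to 5.70 CPM in MEFs, *Elk3* and *Etv5* were high in MEFs and preB-ALL and lower in most lymphoma lines, and *Erg* was high in preB-ALL and in lines L16 and L17. In the comparison of the 6 lymphoma lines with the 2 preB-ALL libraries, 4 of 10 members passed the threshold (adjusted p under 0.05, limma), 2 of them higher in the lines (*Ets1*, *Ets2*) and 2 lower (*Elf1*, *Elk3*). This is near the background, as 43.4% of all 13961 genes tested passed, 20.9% higher and 22.5% lower. Values of the 2 groups did not overlap for 6 of 10 members and for 53.4% of all genes. The median log2 fold change of the 10 members was -0.50, against -0.07 for all genes. Without a scaling factor the median of all genes moved to -0.42, and the share of higher genes among those called fell from 48.1% to 27.8%. Against the 4 sg*Bcl-2* MEF libraries, 9 members passed the filter on low values and 7 of them the threshold, 5 higher and 2 lower in the lines, while 81.3% of all genes passed, 36.3% higher and 45.0% lower. Groups did not overlap for 7 of these 9 members and for 75.3% of all genes, and the median log2 fold change was 1.48 for these members and -0.27 for all genes. In these bulk samples, fewer cells of a type and less RNA per cell cannot be told apart.

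**Figure D1:**
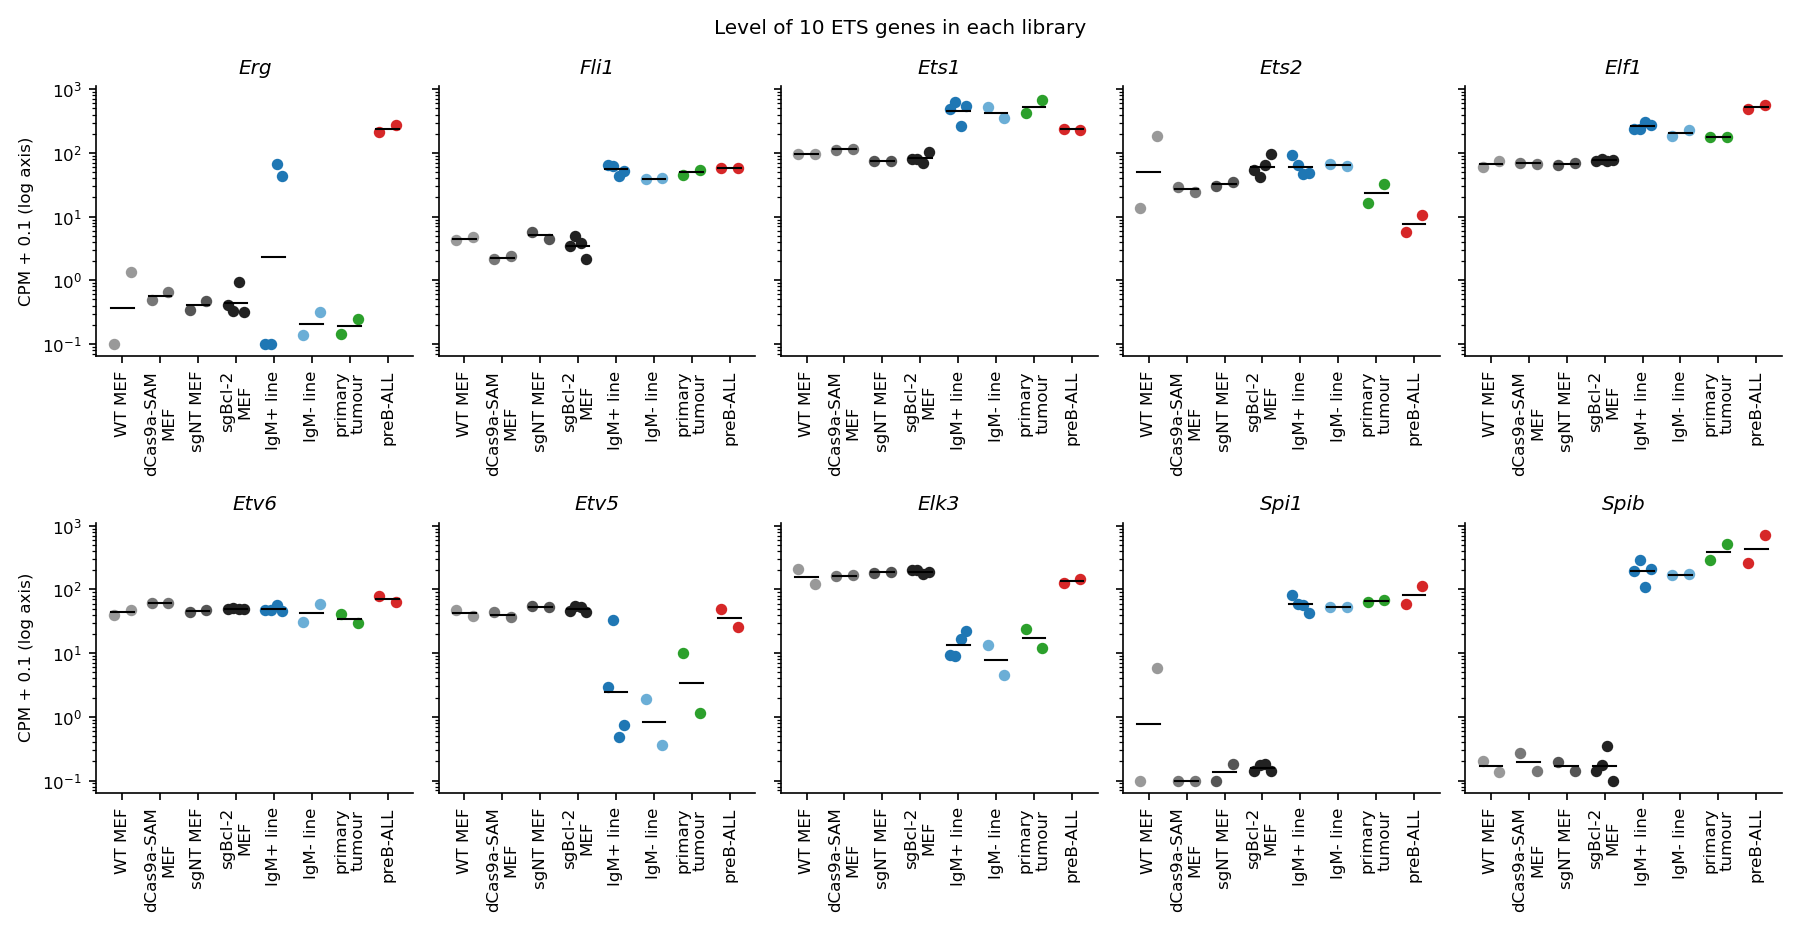
CPM + 0.1 (log axis) of each of the 10 ETS genes in every library, by group, with points for libraries and bars for the mean on the log2 scale. *Erg* sits at 212 and 274 CPM in preB-ALL, at 65.9 and 42.8 CPM in 2 of the 4 IgM-positive lines, and at or below 1.25 CPM elsewhere, while *Spi1* and *Spib* separate the lymphoid libraries from the MEFs.

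*Erg*, a factor needed by blood stem cells and early B cell precursors and also active in endothelium, was the most variable member over the 6 lymphoma lines. Its level was 212 CPM (3169 reads) in preB-ALL 1 and 274 CPM (3412 reads) in preB-ALL 2. Among the lines it was 65.9 CPM (1738 reads) in L16, 42.8 CPM (860 reads) in L17, 0.216 CPM in L19, 0.0391 CPM in L18 and 0 in L14 and L15. The 4 IgM-positive lines thus fell into 2 with over 40 CPM and 2 without a read, and no line reached the level of either preB-ALL library. A count of 0 allows up to 3 reads, or 0.122 and 0.113 CPM in L14 and L15, so *Erg* in the lower preB-ALL library was at least 1740-fold and 1880-fold higher (floor per library, counting error only). The tumour libraries 20 and 21 held 1 and 3 *Erg* reads (0.0438 and 0.150 CPM), no more than a count of 0 would allow. Endothelial cells express *Erg*, and the sum of 8 endothelial markers was 63.8 and 88.4 CPM in preB-ALL, 3.02 to 43.4 CPM in the lines, 32.9 and 43.8 CPM in the tumours and 7.59 to 59.1 CPM in MEFs. In preB-ALL nearly all of that sum was *Pecam1* (63.1 and 87.2 CPM), the 1 marker of the 8 above 1 CPM there, and 4 of the 8 were at 0 in each library. The part of endothelial RNA in the *Erg* level was not tested. The fitted log2 fold change of lines against preB-ALL was -7.54 (SE 2.84, adjusted p = 0.0611, limma), which missed the threshold although none of the 6 lines overlapped preB-ALL. The size depends on the method, as a pseudocount of 1 CPM gave -5.64 (adjusted p = 0.0397) and edgeR -3.37. Over 18 alternatives the adjusted p ran from 0.00696 to 0.368 and 6 passed. Among these, without line L16 it was 0.0218 (log2 fold change -8.75) and without line L17 0.0288 (-8.62). The SD of *Erg* over the 6 lines was 4.45 on the log2(CPM + 0.1) scale, against a median of 0.29 over the 10268 genes kept by the filter there. *Erg* was not among the genes kept, and with 0 reads in L14 and L15 its SD depends on the pseudocount. In MEFs *Erg* was 0 to 0.848 CPM apart from WT MEF 2, with 1.25 CPM.

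*Fli1*, the closest relative of *Erg*, did not share that pattern across the lymphoid libraries. It was at 64.9 CPM in L14, 63.0 in L15, 43.9 in L16, 51.2 in L17, 38.2 in L18 and 39.8 in L19, at 45.3 and 54.4 CPM in the tumours, and in preB-ALL 1 and 2 the level was 58.6 and 58.1 CPM. The lines without *Erg* reads, L14 and L15, held the most *Fli1* of the 6, while L18 and L19, with 1 and 5 *Erg* reads, held the least. The ranges of lines and preB-ALL overlapped. The log2 fold change of lines against preB-ALL was 0.11 (SE 0.21, adjusted p = 0.69, limma) and turned to -0.25 without a scaling factor. MEFs held 2.03 to 5.70 CPM, and *Fli1* was 3.65 higher in the lines than in sg*Bcl-2* MEFs on the log2 scale (SE 0.24, adjusted p = 1.042e-07, limma). Per kilobase of exons, *Erg* reached 61.1 and 78.9 CPM per kb in preB-ALL against 16.8 and 16.7 for *Fli1*. In line L16 the values were 19.0 for *Erg* and 12.6 CPM per kb for *Fli1*, so that there, too, *Erg* was the higher of the pair, while in L17 *Erg* was the lower (12.4 against 14.7 CPM per kb).

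*Ets1*, which restrains terminal differentiation of B cells, was at 495 CPM in L14, 621 in L15, 263 in L16, 543 in L17, 519 in L18 and 348 in L19. Both tumours (417 and 683 CPM) lay in or above that range, and both preB-ALL libraries (239 and 231 CPM) below all lines. Line L16, with the most *Erg* of the lines, had the least *Ets1*, while L17, next in *Erg*, was among the higher lines at 543 CPM. The log2 fold change of lines against preB-ALL was 1.29 (SE 0.30, adjusted p = 0.00892, limma), and the call was lost without preB-ALL 1 (adjusted p = 0.0545) and without preB-ALL 2 (0.107). In MEFs *Ets1* was 69.5 to 115 CPM, and the lines were 2.27 higher than sg*Bcl-2* MEFs on the log2 scale (SE 0.22, adjusted p = 3.599e-06, limma).

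*Ets2*, a target of RAS and ERK signalling and the chromosomal neighbour of *Erg*, ran opposite to *Erg* between the tumour types. It was at 91.7 CPM in L14, 63.6 in L15, 46.8 in L16, 48.4 in L17, 66.4 in L18 and 61.3 in L19. In preB-ALL 1 and 2 it was only 5.61 and 10.4 CPM. Every one of the 6 lines exceeded preB-ALL 1 and 2, and lines L16 and L17, with the most *Erg*, held the least *Ets2* of the lines. Tumour libraries 20 and 21, with only 1 and 3 *Erg* reads, held less *Ets2* still, at 16.0 and 33.0 CPM. The log2 fold change of lines against preB-ALL was 3.35 (SE 0.30, adjusted p = 4.82e-05, limma). It stayed called under all alternatives tried, leaving out preB-ALL 1 or 2 included. *Ets2* varied in MEFs, from 13.5 CPM in WT MEF 1 to 185 CPM in WT MEF 2, with 24.2 to 95.5 CPM in the others, so lines and sg*Bcl-2* MEFs overlapped (log2 fold change -0.16, SE 0.24, adjusted p = 0.54, limma).

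**Figure D2:**
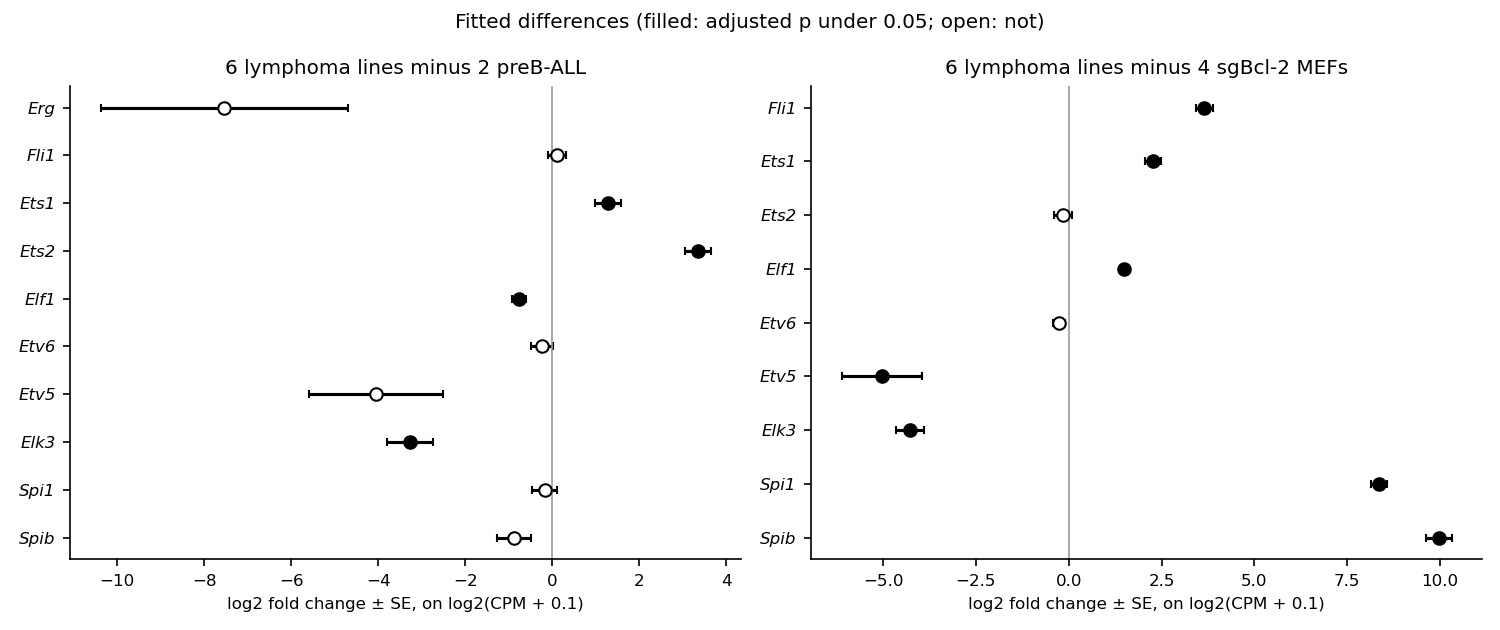
Fitted log2 fold changes with SE of the 6 lymphoma lines against 2 preB-ALL libraries (left) and against 4 sg*Bcl-2* MEF libraries (right), filled where the adjusted p was under 0.05. *Ets2* and *Elk3* lie farthest from 0 among the filled points on the left, and *Erg* (SE 2.84) and *Etv5* (SE 1.54) have the widest bars.

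*Spib*, an ETS activator of mature B cells and plasmacytoid dendritic cells, was the highest family member per kilobase in 4 of the 6 lines, in both tumours and in both preB-ALL libraries. In lines L14, L15, L17 and L19 it ranked first, in L18 second after *Ets1*, and in L16 second after *Elf1*. Its level was 197 CPM in L14, 287 in L15, 111 in L16, 212.5 in L17, 166 in L18 and 173 in L19, 294 and 519 CPM in tumour libraries 20 and 21, and 258 and 720 CPM in preB-ALL 1 and 2. PreB-ALL 1 lay within the range of the lines. The log2 fold change of lines against preB-ALL was -0.87 (SE 0.39, adjusted p = 0.11, limma), while it was -1.60 without preB-ALL 1 (adjusted p = 0.0238) and -0.22 without preB-ALL 2 (0.73). MEFs held 0 to 0.242 CPM.

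*Spi1* encodes PU.1, which directs myeloid and B cell development and overlaps SPIB in its targets. It was at 83.0 CPM in L14, 58.4 in L15, 56.6 in L16, 41.9 in L17, 52.4 in L18 and 52.9 in L19, at 62.2 and 68.3 CPM in the tumours, and in preB-ALL its level reached 58.5 and 113 CPM. Its SD over the lines was 0.32 on the log2 scale, close to the median of 0.29 over 10268 genes, and lines and preB-ALL overlapped (log2 fold change -0.17, SE 0.28, adjusted p = 0.65, limma). Without preB-ALL 2 that value was 0.21. In MEFs *Spi1* was 0 to 0.0828 CPM except in WT MEF 2, with 5.70 CPM. That library also held 104 CPM of *Lyz2* and 24.4 CPM of *Csf1r*, both macrophage markers, where the other MEFs held 1.16 to 4.34 and 0.902 to 2.81 CPM. The part of other cells in that library was not tested. Against sg*Bcl-2* MEFs the fitted log2 fold changes of the lines were 8.35 for *Spi1* (SE 0.21, adjusted p = 6.635e-11) and 9.96 for *Spib* (SE 0.35, adjusted p = 6.299e-10, limma). MEFs held almost no reads of either gene, so these sizes follow the pseudocount, and at 1 CPM in place of 0.1 CPM they were 5.68 and 7.33.

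*Elf1*, a broadly expressed lymphoid activator, was 235 CPM in L14, 241 in L15, 303 in L16, 272 in L17, 186 in L18 and 230 in L19, and 496 and 559 CPM in preB-ALL. It was the steadiest member over the lines, with an SD of 0.24 on the log2 scale, and no line reached preB-ALL. Lines against preB-ALL gave a log2 fold change of -0.76 (SE 0.17, adjusted p = 0.00781, limma), and without preB-ALL 2 the adjusted p was 0.058. The tumours were at 175 and 180 CPM, just below the lowest line. MEFs held 60.6 to 78.9 CPM, and the lines were 1.48 higher than sg*Bcl-2* MEFs on the log2 scale (SE 0.11, adjusted p = 4.624e-07, limma). In line L16 *Elf1* was the highest ETS gene per kilobase, at 44.9 CPM per kb.

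*Etv6*, a repressor that is fused to other genes in human leukaemias, was the most even member between cell types. It was 30.5 to 58.5 CPM in the lines, 40.4 and 29.4 CPM in the tumours, 79.4 and 63.7 CPM in preB-ALL and 40.0 to 60.4 CPM in MEFs. All 6 lines lay below preB-ALL, but the difference missed the threshold (log2 fold change -0.23, SE 0.24, adjusted p = 0.47, limma). Against sg*Bcl-2* MEFs the log2 fold change was -0.25 (SE 0.16, adjusted p = 0.16, limma), and RLE scaling moved it to -0.45 with an adjusted p of 0.0195.

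*Elk3*, a ternary complex factor that works with SRF and turns from repressor to activator on ERK signalling, separated the lymphoma lines from both other cell types. It was 9.08 CPM in L14, 9.03 in L15, 16.6 in L16, 21.9 in L17, 13.5 in L18 and 4.44 in L19, 24.2 and 11.8 CPM in the tumours, 128 and 147 CPM in preB-ALL and 122 to 208 CPM in MEFs. No line or tumour overlapped preB-ALL or MEFs. Against preB-ALL the fitted log2 fold change was -3.27 (SE 0.53, adjusted p = 0.0016, limma), and against sg*Bcl-2* MEFs it was -4.27 (SE 0.37, adjusted p = 1.344e-06, limma). Both calls held under all alternatives tried. Fibroblast marker RNA was also present in preB-ALL, beside the myeloid markers given above and the T cell list, which was nearly all *Cd2* there. *Elk3* in preB-ALL 1 and 2 was 70.0% and 80.3% of the MEF median, and the summed fibroblast markers were at 20.7% and 9.81% of theirs. Single fibroblast markers ranged from 0 to 57.2% of the MEF median in preB-ALL 1 and from 0 to 26.6% in preB-ALL 2. The collagen genes *Col1a1* (855 and 456 CPM) and *Col1a2* (1176 and 526 CPM) were abundant, and *Dcn* was at 0 in both libraries. The part of fibroblast RNA in the *Elk3* level was not tested.

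*Etv5*, a PEA3 factor induced by FGF and ERK signalling, had the widest spread over the lines after *Erg*, with an SD of 2.41 on the log2 scale. It was 2.84 CPM in L14, 33.5 in L15, 0.379 in L16, 0.647 in L17, 1.80 in L18 and 0.259 in L19, a range of 129-fold. Line L15 lay between the 2 preB-ALL libraries (49.6 and 25.8 CPM) and just below the MEFs (36.1 to 54.4 CPM), and the other 5 lines lay below both. The log2 fold change of lines against preB-ALL was -4.05 (SE 1.54, adjusted p = 0.0632, limma), and without line L15 it was -4.94 with an adjusted p of 0.00453. By edgeR the value was -2.25, and 5 of 17 alternatives passed (adjusted p from 0.00453 to 0.279). Compared with sg*Bcl-2* MEFs it was -5.03 (SE 1.08, adjusted p = 0.00137, limma). The tumours held 9.77 CPM (library 20) and 1.05 CPM (library 21). In preB-ALL 1 and 2 *Etv5* was at 107% and 55.6% of the MEF median and *Ets2* at 14.5% and 26.9%. The part of fibroblast RNA in either level was not tested.

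**Figure D3:**
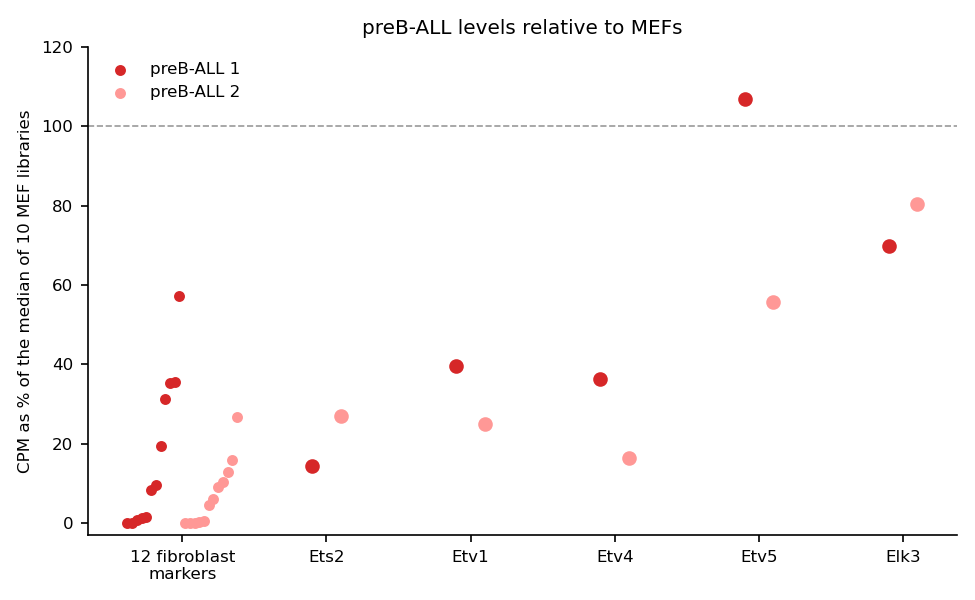
Level in preB-ALL 1 and preB-ALL 2 as a percentage of the median of 10 MEF libraries, for 12 single fibroblast markers and for the ETS genes *Ets2*, *Etv1*, *Etv4*, *Etv5* and *Elk3*. *Etv5* and *Elk3* lie at 55.6% to 107%, above the fibroblast markers of the same library, while the other ETS genes shown lie within the range of those markers in preB-ALL 1.

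**Figure D4:**
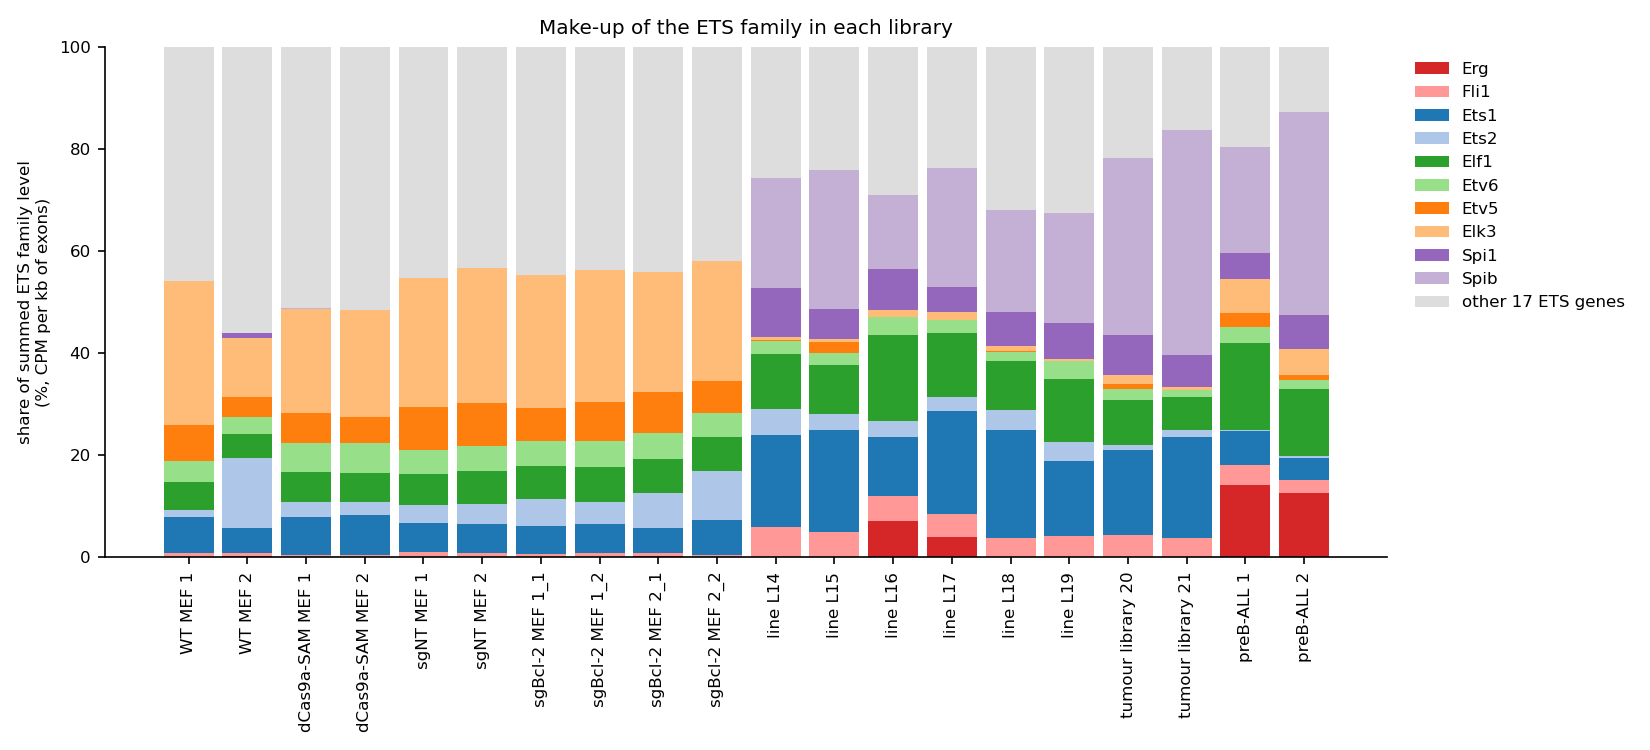
Share (%) of each gene in the summed level (CPM per kb of exons) of 27 ETS family genes, one bar per library. *Spib* makes up 14.5% to 44.2% of the lymphoid bars, *Elk3* 11.5% to 28.1% of the MEF bars, and *Erg* 14.2% and 12.5% of the preB-ALL bars.

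Scaled to the whole family, *Erg* was 14.2% and 12.5% of the summed ETS level per kilobase in preB-ALL 1 and 2, 7.15% in L16 and 3.89% in L17. *Spib* was 14.5% to 27.4% in the lines, 34.7% and 44.2% in the tumours and 20.9% and 39.8% in preB-ALL. *Ets1* was 11.7% to 21.2% in the lines against 6.56% and 4.32% in preB-ALL. *Elk3* was 11.5% to 28.1% in MEFs, 0.350% to 1.51% in the lines and 6.55% and 5.13% in preB-ALL.

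Of the other 17 ETS genes, 9 passed the filter in the comparison of lines with preB-ALL, and 6 of them the threshold, which 43.4% of all genes passed. *Elk4*, another ternary complex factor, was 101 CPM on average in the lines (SD 22.8, n = 6) and 47.3 CPM in preB-ALL (SD 4.48, n = 2), a log2 fold change of 1.42 (SE 0.27, adjusted p = 0.00351, limma). *Gabpa*, the DNA-binding subunit of GABP, was also higher in the lines (0.83, SE 0.16, adjusted p = 0.00426). *Elk1* (-0.74, SE 0.21, adjusted p = 0.0203) and the repressor *Etv3* (-0.96, SE 0.22, adjusted p = 0.00855) were lower. Genes of the ternary complex subfamily therefore moved in both directions, *Elk4* up and *Elk1* and *Elk3* down. The calls of *Elk4*, *Gabpa* and *Etv3* were lost without preB-ALL 2 (adjusted p = 0.0674, 0.0704 and 0.0932), and that of *Elk1* without preB-ALL 1 (0.0638). With the tumours in place of the lines of the same mice, *Elk4* (0.126) and *Gabpa* (0.0735) did not pass, nor did *Gabpa* with no scaling (0.0583). *Etv1* and *Etv4*, the other PEA3 genes beside *Etv5*, were lower as well, with 0 to 0.112 and 0 to 0.0750 CPM in the lines against 3.81 and 2.40 CPM (*Etv1*) and 6.75 and 3.05 CPM (*Etv4*) in preB-ALL. Their fitted log2 fold changes of -4.44 and -5.05 follow the pseudocount and were -1.79 and -2.24 at 1 CPM, still past the threshold. Both genes passed the filter on low values through preB-ALL alone, so their direction was fixed in advance. *Elf2*, *Elf4* and *Erf* were above 1 CPM in every library and did not pass. In the comparison with sg*Bcl-2* MEFs, all 9 of these genes passed, as did 81.3% of all genes, 5 higher and 4 lower, among them *Elk4* (2.50, SE 0.19), *Elk1* (-1.95, SE 0.11), *Etv4* (-7.45, SE 0.21) and *Etv1* (-6.52, SE 0.24). The last 2 sizes also follow the pseudocount and were -4.37 and -3.52 at 1 CPM. *Elf3*, *Elf5*, *Ehf*, *Etv2*, *Etv3l*, *Fev*, *Spdef* and *Spic* stayed at 0 to 0.342 CPM in all 20 libraries.

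The feedback genes of ERK signalling, which are induced with *Etv4* and *Etv5*, were examined beside them. In the comparison of lines with preB-ALL, 4 of 8 passed the threshold, all lower in the lines, where 22.5% of all genes were called lower. *Dusp6*, an ERK phosphatase, was 173 and 356 CPM in preB-ALL, 8.73 CPM in line L15, 3.04 in L14, 0.796 in L16, 0.747 in L17, 0.156 in L18 and 0 in L19 (log2 fold change -7.78, SE 1.52, adjusted p = 0.004, limma), and without preB-ALL 2 the adjusted p was 0.0632. Line L15, with the most *Etv5* of the lines, also held the most *Dusp6*, and its level stayed far below preB-ALL. *Spry4* was 22.2 and 5.85 CPM in preB-ALL and 0.0379 to 0.249 CPM in the lines (adjusted p = 0.000124, limma), and *Dusp4* was 5.88 and 2.48 CPM against 0 to 0.0375 CPM (adjusted p = 1.943e-05, limma). Both passed the filter on low values through preB-ALL alone, so their direction was fixed in advance and their p-values depend on the pseudocount. Fibroblasts express these genes too. *Spry4* was at 99.3% of the MEF median in preB-ALL 1 and at 26.2% in preB-ALL 2, within the range of the fibroblast markers in the latter library. *Dusp4*, at 7.27% and 3.07%, was within that range in both, and *Dusp6* was at 338% and 695%. The part of fibroblast RNA in these levels was not tested. Against sg*Bcl-2* MEFs, 7 of 8 passed, all lower in the lines, where 45.0% of all genes were called lower. The 3 with the smallest adjusted p were *Dusp4* (-9.84, adjusted p = 2.482e-11), *Spry4* (-7.05, adjusted p = 1.432e-09) and *Spry2* (-7.97, adjusted p = 5.86e-06, limma). With a pseudocount of 1 CPM, *Dusp4* was at -6.60 and *Spry4* at -4.50.

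**Figure D5:**
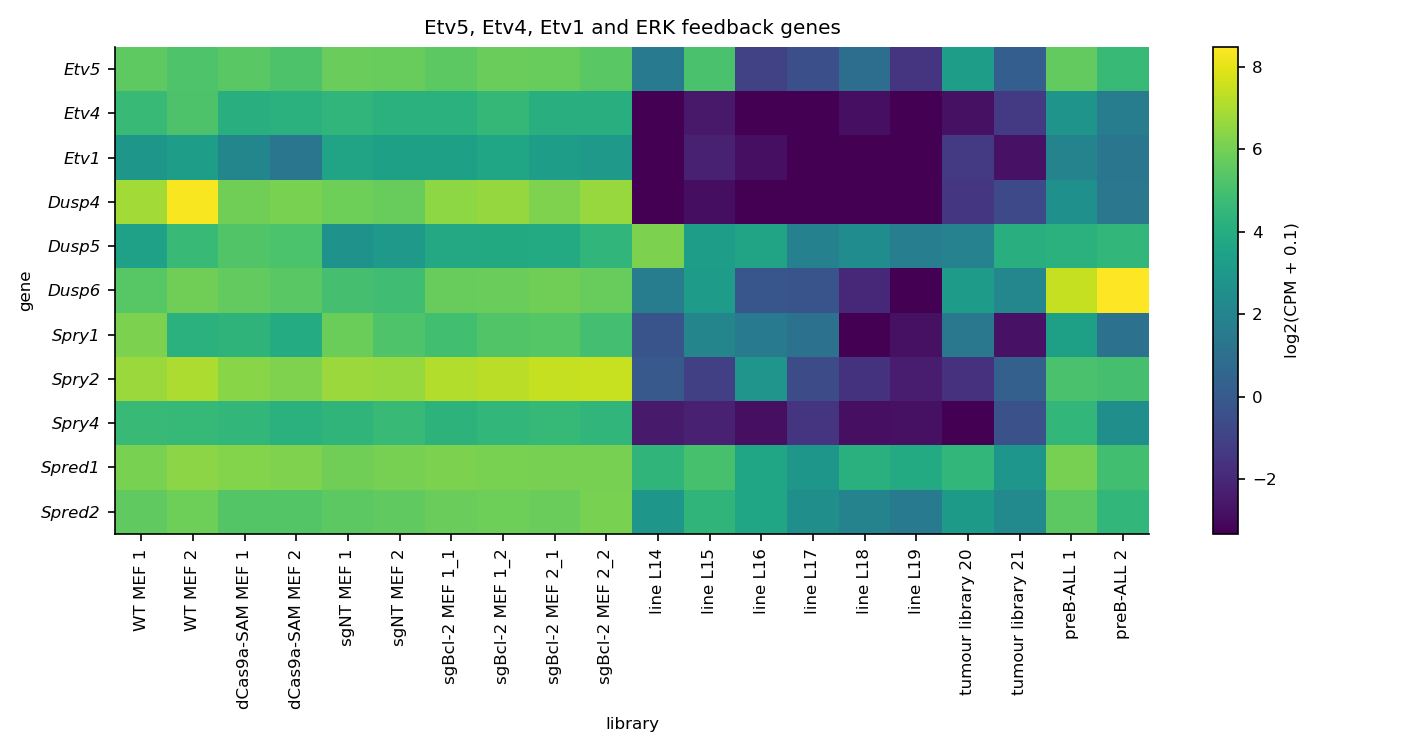
log2(CPM + 0.1) of *Etv5*, *Etv4*, *Etv1* and 8 ERK feedback genes (rows) in the 20 libraries (columns), as a colour scale. In the *Dusp4* row the MEF columns (52.3 to 331 CPM) are far brighter than those of the lines (0 to 0.0375 CPM), while *Spred1* (7.57 to 32.9 CPM) and *Dusp5* (3.19 to 71.7 CPM) are visible in every line, and *Dusp6* is brightest in preB-ALL (173 and 356 CPM).

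Partner factors of ETS proteins were tested in the same fits. Between lines and preB-ALL, 12 of 13 passed the filter, 2 were called higher and 3 lower in the lines, near the background of 20.9% of all genes higher and 22.5% lower (43.4% in all). The 3 with the smallest adjusted p were *Jun* (11.0 CPM in the lines, SD 7.56, n = 6, and 290 CPM in preB-ALL, SD 179.1, n = 2, log2 fold change -4.57, SE 0.86, adjusted p = 0.00332), *Fos* (-4.82, SE 1.13, adjusted p = 0.00948) and *Runx1* (-1.78, SE 0.45, adjusted p = 0.0136, limma). *Jun* and *Fos* form AP-1. *Runx1* was 121 and 173 CPM in preB-ALL and 15.5 to 64.2 CPM in the lines. These 3 calls were lost without preB-ALL 2 (adjusted p = 0.0657, 0.0943 and 0.137), and those of *Fos* and *Runx1* also without preB-ALL 1 (0.0676 and 0.0546). Against sg*Bcl-2* MEFs, 8 of 13 were called higher and 4 lower, where 36.3% of all genes were called higher and 45.0% lower (81.3% in all). The smallest adjusted p were those of *Gata2* (-7.59, SE 0.21, adjusted p = 1.375e-10), *Irf8* (7.97, SE 0.34, adjusted p = 3.642e-09) and *Gabpb2* (2.34, SE 0.13, adjusted p = 2.407e-08, limma). The sizes for *Gata2* and *Irf8* follow the pseudocount and were -4.51 and 6.05 at 1 CPM.

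Of 8 B cell genes known as targets of PU.1, SPIB or ETS1, 2 were called lower in the lines than in preB-ALL and none higher, where 22.5% of all genes were called lower, so the count is near the background. *Pax5* was 68.7 CPM in the lines (SD 32.3, n = 6) and 283 CPM in preB-ALL (SD 126, n = 2), a log2 fold change of -1.72 (SE 0.40, adjusted p = 0.0095, limma). *Cd79a*, part of the B cell receptor, followed (-1.35, SE 0.34, adjusted p = 0.0121), and *Btk* did not pass (-0.34, SE 0.14, adjusted p = 0.0779). Without preB-ALL 2 the adjusted p of *Pax5* was 0.132 and that of *Cd79a* 0.146. *Cd79a* was 1603 and 1393 CPM in the tumours, and with the tumours in place of the lines of the same mice its log2 fold change was -0.85 (adjusted p = 0.366, limma). The B cell marker list, whose sum was also below preB-ALL in every line, holds *Pax5* and *Cd79a*, and the part of that sum in the levels of *Pax5*, *Cd79a* and *Spib* was not tested. Against sg*Bcl-2* MEFs, 7 of 8 were called higher in the lines, where 36.3% of all genes were, with *Btk* (9.63), *Cd79a* (10.22) and *Pax5* (8.96) at the smallest adjusted p, while *Ebf1* did not pass. At a pseudocount of 1 CPM these sizes were 7.12, 8.42 and 5.91.

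Between the 2 IgM-negative and the 4 IgM-positive lines, 0 of 10 members passed the threshold, where 0.597% of all genes did (limma). By edgeR (0.194% of all genes), DESeq2 (6.05%) and limma-voom (0.00807%) the count was also 0. By limma, 1 member of 10, *Fli1*, had an unadjusted p under 0.05, as did 1397 of all 12386 genes tested. *Fli1* (38.2 and 39.8 CPM against 43.9 to 64.9 CPM) and *Elf1* (186 and 230 CPM against 235 to 303 CPM) were the 2 members whose groups did not overlap, where 22.6% of all genes did not. Their log2 fold changes were -0.44 (SE 0.18, adjusted p = 0.44) and -0.28 (SE 0.16, adjusted p = 0.57, limma). *Erg*, at 0.0391 and 0.216 CPM in the IgM-negative lines and 0 to 65.9 CPM in the IgM-positive ones, had a log2 fold change of -3.45 (SE 3.15, adjusted p = 0.71, limma).

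Between the 2 primary tumours and the lines of the same mice, L14 and L15, 0 of 9 members tested passed the threshold, where 0.330% of all genes did (limma). By edgeR and limma-voom it was also 0, as it was over all genes, and by DESeq2 it was 1 of 9, where 16.5% of all genes passed. *Ets2* was 16.0 and 33.0 CPM in the tumours and 91.7 and 63.6 CPM in the lines (log2 fold change -1.78, SE 0.45, adjusted p = 0.11, limma), and DESeq2 gave it an adjusted p of 0.00533. *Elf1* (-0.48, SE 0.14, adjusted p = 0.13) was lower and *Elk3* (0.85, SE 0.43, adjusted p = 0.29) and *Spib* (0.66, SE 0.35, adjusted p = 0.31) were higher in the tumours without overlap and without passing. Groups did not overlap for 6 of 9 members and for 57.1% of all genes. With the mouse numbers of the titles as a replicate block, *Ets2* (adjusted p = 0.00795), *Elf1* (0.0354) and *Etv5* (log2 fold change -1.61, adjusted p = 0.0245) were called lower in the tumours, and 28.3% of all genes passed. With those of the descriptions, 0 members and 0 of all genes passed. *Etv5* was 9.77 and 1.05 CPM in the tumours against 2.84 and 33.5 CPM in the lines. Of 8 T cell markers, only *Cd2* was above 1 CPM in the tumours (158 and 255 CPM), and the summed level of 8 macrophage and other myeloid markers was 41.7 and 30.7 CPM there against 2.27 to 13.2 CPM in the lines. The part of host cells was not tested. *Il7r*, of the list of B cell targets, was the 1 gene of the 4 further lists called here (1.14 and 2.99 CPM against 142 and 132 CPM, log2 fold change -6.18, adjusted p = 0.0498), and the call was lost without any 1 of the 4 libraries (adjusted p = 0.154 to 0.32) and under 10 of 16 alternatives in all.

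Within MEFs, sg*Bcl-2* libraries were compared with sgNT libraries for an effect of activating *Bcl-2*. The 4 sg*Bcl-2* libraries are 2 each from MEFs numbered 1 and 2, and the 2 sgNT libraries carry the same numbers, 1 each. *Elf1* was the 1 member of 7 tested that passed the threshold, where 10.8% of all genes did. It was 74.3, 78.9, 75.1 and 77.7 CPM with sg*Bcl-2* and 65.5 and 68.8 CPM with sgNT (log2 fold change 0.28, SE 0.07, adjusted p = 0.0366, limma), and the call was lost without either sgNT library (adjusted p = 0.26 and 0.0972), without sg*Bcl-2* library 1_1 (0.0628) or 1_2 (0.0773), with no scaling (0.081), with sg*Bcl-2* reads summed per MEF number (0.0617) and with all 20 libraries in the fit (0.838), or 7 of 17 alternatives. *Ets2* showed the larger difference, at 52.9, 42.4, 64.1 and 95.5 CPM with sg*Bcl-2* against 30.6 and 35.1 CPM with sgNT, without overlap (log2 fold change 0.98, SE 0.28, adjusted p = 0.0581, limma). It passed without library 1_2 (adjusted p = 0.0273), without library 2_2 (0.0217), with sg*Bcl-2* reads summed per MEF number (0.0455) and with that number as a replicate block (0.0161), or 4 of 17 alternatives. *Etv6* also did not overlap (0.21, SE 0.07, adjusted p = 0.09, limma). Groups did not overlap for 3 members of 7 and for 44.0% of all genes. Of the ERK feedback genes, 4 of 8 were called higher with sg*Bcl-2*, where 6.61% of all genes were. The 3 with the smallest adjusted p were *Dusp6* (55.0 CPM, SD 3.47, n = 4, against 30.7 CPM, SD 2.21, n = 2, log2 fold change 0.93, SE 0.07, adjusted p = 0.000905), *Spry2* (0.74, SE 0.10, adjusted p = 0.00607) and *Dusp4* (0.77, SE 0.13, adjusted p = 0.0117, limma). The calls of *Spry2* and *Dusp4* were lost without sgNT library 1 (adjusted p = 0.0673 and 0.0848) or 2 (0.0587 and 0.0943). *Etv5* itself did not pass, and the AP-1 genes *Fos* (2.78, SE 0.29, adjusted p = 0.00226) and *Jun* (0.75, SE 0.08, adjusted p = 0.00226) and *Runx1* (0.89, SE 0.24, adjusted p = 0.0496) were called higher (limma). The call of *Runx1* was lost under 11 of 17 alternatives (adjusted p up to 0.886). With all 20 libraries in the fit, the calls of *Fos* (adjusted p = 0.389) and *Dusp4* (0.84) and those of *Jun*, *Dusp6* and *Spry2* (each 1) were lost too.

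Between sgNT and WT MEFs, 0 of 7 members tested and 0 of all genes passed (limma, 589 genes and no member at an unadjusted p under 0.05). *Ets2* was 30.6 and 35.1 CPM with sgNT and 13.5 and 185 CPM in the WT libraries. Its log2 fold change was -0.60 (SE 1.26, adjusted p = 0.88, limma), and it became 1.21 (adjusted p = 0.000672) without WT MEF 2 and -2.36 (adjusted p = 0.00402) without WT MEF 1. Groups did not overlap for 2 of 7 members and for 37.9% of all genes. *Ets1* was called lower with sgNT without WT MEF 2 (log2 fold change -0.44, adjusted p = 0.0202). Without WT MEF 2, 2 members and 11.2% of all genes passed, and without WT MEF 1, 5 members and 53.4%. The lone WT library was assumed there to vary like the sgNT libraries. WT MEF 2 is the library with the macrophage markers.

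By the level profile over the 8 groups (root mean square difference of centred mean log2(CPM + 0.1), 16483 genes), the genes most like *Erg* were *Drc7* (0.87), *Car2* (0.88) and *Enpep* (0.88). *Enpep*, which encodes the pre-B cell antigen BP-1, was 457 and 300.04 CPM in preB-ALL, 42.3 CPM in L17, 14.9 in L16, 4.01 in L15, 0.0431 in L19 and 0 in L14 and L18. It shared with *Erg* the order of preB-ALL above lines L16 and L17 above the rest. *Car2* did not, with 4.42 CPM in L15 and 0.265 and 0.0498 CPM in L16 and L17. Nor did *Drc7*, the nearest gene, with 3.336 CPM in L17 and 0.0758 CPM in L16, below L14 (0.5677 CPM) and L15 (0.112 CPM). The nearest genes of the other members were *Septin6* for *Fli1* (0.21), *Snrpf* for *Ets1* (0.15), *Spire1* for *Ets2* (0.39), *Mip* for *Elf1* (0.15), *Galnt1* for *Etv6* (0.11), *Sfmbt2* for *Etv5* (0.24), *Tpm4* for *Elk3* (0.23), *Fermt3* for *Spi1* (0.33) and *Cd79a* for *Spib* (0.34). *Mip* was at most 1.20 CPM in any library and at or near 0 in MEFs, so its likeness to *Elf1* depends on the pseudocount.

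Genes beside the 2 ETS pairs were read out for position. Next to *Erg* on chromosome 16, *Kcnj15* was at 0 in all 6 lines and both tumours, 0 and 0.240 CPM in preB-ALL and 4.90 to 17.4 CPM in MEFs, and *Kcnj6* was at most 0.424 CPM in all libraries. *Psmg1* and *Brwd1* on the side of *Ets2* were 28.3 to 39.9 and 6.09 to 7.01 CPM in preB-ALL and 46.0 to 65.9 and 1.41 to 70.9 CPM in the lines. The 4 libraries with high *Erg* thus held at most 0.240 CPM of *Kcnj15* and 0.0996 CPM of *Kcnj6*. On chromosome 9, *Kcnj5* and *Kcnj1* were at or below 0.0802 CPM in lines and preB-ALL, where *Fli1* and *Ets1* were high.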

How the data were processed

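RNA-seq was done on 20 mouse libraries. The authors aligned reads to GRCm38 (mm10) with Rsubread, counted them per Entrez gene and deposited CPM for 25869 genes, of which 25242 matched a RefSeq symbol. Whether counting used strand is not stated. All CPM values gave whole reads (tolerance 0.01), so the reads could be recovered. Genes were filtered with filterByExpr, and log2(CPM + 0.1) with TMM scaling was tested by limma 3.58.1 with trend (R 4.3.3), Benjamini-Hochberg adjustment over all genes and a threshold of 0.05, in 6 comparisons. The test was also run on simulated data in which few genes changed, so that run does not cover comparisons where many genes pass. Alternatives were edgeR 4.0.16 and DESeq2 1.42.0 on the recovered reads, voom, other scalings, pseudocounts, filters and sample sets, a replicate block, and leaving out each library. None of the 18 pairs of libraries within a group agreed within sampling noise. The number of reads sets the counting error, and a floor of 3 reads was used for a count of 0. A gene near the floor throughout a group passes the filter only through the other group. Its direction is then fixed in advance, and its p-value depends on the pseudocount.

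The members and gene lists were chosen with earlier results of these data known. Named in the text are all members, other ETS genes above 1 CPM throughout a group or past the threshold, the 3 smallest adjusted p of the other lists, and the genes nearest in profile. Other genes are named where a result turned on them.

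Samples were grouped by their labels. In the tumours, the mouse numbers of titles and descriptions disagree, and both pairings were fitted. Deviations of same-numbered tumour and line libraries correlated at 0.598 across genes by the titles and at -0.598 by the descriptions. Exchanging the tumour numbers only turns the sign, so the second value adds nothing to the first. Promoter letters are from RefSeq (GRCm38.p6).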

Additional observations from a re-analysis of the deposited data

Results flagged for a closer look

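*Etv6* stood apart in single lines by Dixon's test, in which the gap between an extreme library and its nearest neighbour is divided by the range of the group. Both values below exceed its critical value. Line L16 was the highest of the 4 IgM-positive lines with 57.7 CPM (gap over range 0.836). Line L18 was the lowest of all 6 lines with 30.5 CPM (gap over range 0.645). These were 2 of 30 gene and group pairs examined, and a threshold of 0.05 lets some pairs pass by chance.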

How the results depend on the processing

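Over 69 gene results and 1262 alternatives, 1167 kept direction and side of the threshold, 56 lost the threshold, 30 gained it and 9 had the opposite sign. In the lines against preB-ALL, 2 to 5 members were called when 1 library was left out, 2 of them without preB-ALL 2, where 22.2% of all genes passed in place of 43.4%. With no scaling, limma-voom and all 20 libraries in the fit, 6 were called (43.6%, 43.0% and 47.4% of all genes). Between tumours and lines, DESeq2 called 1 member (16.5% of all genes), all 6 lines in place of 2 called 1 (19.7%), and the replicate block called 3 by the titles (28.3%) and 0 by the descriptions (0 of all genes). Between sg*Bcl-2* and sgNT MEFs, 0 to 2 members were called with 1 library left out (1.04% to 11.2% of all genes), 0 with no scaling (12.6%), 0 with all 20 libraries in the fit and 2 with a replicate block by MEF line (14.6%). With no scaling, the share of higher genes among those called there fell from 60.9% to 38.4%. With all 20 libraries in the fit, 0.303% of all genes passed in place of 10.8%. Between sgNT and WT MEFs, 0 members and 0 of all genes were called with the block. The MEF line numbers share a number and no stated source (correlation of deviations 0.333 and 0.0705). Opposite signs were found for *Fli1* against preB-ALL with no scaling (-0.25) and with tumours in place of their lines (-0.050), *Spi1* against preB-ALL without preB-ALL 2 (0.21, -0.63 without preB-ALL 1), *Ets2* against sg*Bcl-2* MEFs with no scaling (0.013), with 1 library left out (-0.34 to 0.058, the latter without library 2_2) and with all 10 MEF libraries (0.38), *Ets2* in sgNT against WT MEFs without WT MEF 2 (1.21, -2.36 without WT MEF 1), and *Etv5* in the tumours without line L15 (0.095, -3.33 without line L14) and against all 6 lines (0.91). The cause was not tested. Where 1 library was left in a group, it was assumed to vary like the others. A count of 0 allows 3 reads, and levels under that floor were not detectable.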
